A study of Mus musculus with 16 samples.

Results

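Livers of 8 heterozygous mice were compared after a 12-hour fast (4 mice) and without a fast (4 mice), 1 array per liver, taken by their titles from a series of 16 arrays. The mice carried 1 working and 1 disrupted copy of Mut, the gene of methylmalonyl-CoA mutase (now named Mmut), together with a transgene that makes the enzyme in muscle from the creatine kinase (MCK) promoter. The labels write this genotype as Mut +/-;TgINS-MCK-Mut. All were males aged 4 months, and the unfasted mice were on a normal diet. The other 8 arrays came from Mut -/-;TgINS-MCK-Mut males of the same age, 4 unfasted and 4 fasted for 8 to 12 hours, and serve here only to compare the fasting response between genotypes. The mutants carried the muscle transgene too, so no group lacked it. The transgene is stated for muscle, and its level in liver was not measured apart from the endogenous gene. The clock time at which livers were taken is not given in the sources used here. Expression was read on Affymetrix Mouse Gene 1.0 ST arrays as log2 values, on which a difference of 1 is a 2-fold change, and the comparison covered 19938 genes with a single annotated symbol.

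When a mouse stops eating, insulin falls while glucagon and glucocorticoids rise, and fatty acids released from adipose tissue reach the liver. There they are burned by mitochondrial beta-oxidation, turned into ketone bodies or stored in lipid droplets, and many of the genes involved are targets of the nuclear receptor PPAR-alpha. Synthesis of fatty acids and cholesterol, which the SREBP and ChREBP transcription factors drive in the fed liver, is turned down, and glucose is made from amino acids, lactate and glycerol.

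After the authors' normalization the heterozygous arrays had medians between 7.35 and 7.39, and arrays of the same heterozygous group correlated at 0.9937 to 0.9976. The first principal component of the 8 heterozygous arrays held 38% of the variance. The fasted arrays lay between 10.64 and 13.53 on it and the unfasted ones between -16.05 and -8.30. On the next component (17.9%) unfasted replicates 1 and 2 lay at 13.13 and 9.07 and unfasted replicates 3 and 4 at -7.86 and -9.87, so mice of 1 group differed among themselves. Mmut, the targeted gene, read 9.66 to 10.10 on the heterozygous arrays and 7.85 to 8.33 on the mutant ones. Its change with fasting in heterozygotes was 0.07 ± 0.11 (SE, limma, adjusted p = 0.91). The 7 hepatocyte markers averaged 13.18 to 13.22 unfasted and 13.22 to 13.25 fasted, and none was called. Of the 9 marker lists of other cell types, covering macrophages, endothelium, stellate cells and fibroblasts, lymphocytes, neutrophils, cholangiocytes, pancreatic acinar cells, adipocytes and red cells, the test called 1 gene, Pdgfra of the fibroblast list, at 0.38 ± 0.08 (adjusted p = 0.019). That call was lost on removal of any 1 of 4 arrays (adjusted p up to 0.071). In bulk liver RNA fewer cells of a type and less RNA per cell cannot be told apart, and the part of cell composition in the results was not tested.

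Fasting changed 313 of the 19938 genes (limma, Benjamini-Hochberg adjusted p under 0.05), 1.57% of those tested. Of these, 146 genes rose (0.732%) and 167 fell (0.838%). In 305 of the 313 the 4 fasted arrays all lay on 1 side of the 4 unfasted ones, against 2084 genes (10.5%) over the whole array. The response was mostly small: 49 called genes changed at least 2-fold, 17 higher and 32 lower, and the median size among called genes was 0.51 log2 units. Over all genes the median change was 0.007 and 92.3% moved by less than 0.25. An unadjusted p under 0.05 (limma) was reached by 2444 of the 19938 genes, the background for such counts in the lists below. The number called depended on single arrays: it was 155 without unfasted replicate 4, 163 without unfasted replicate 3, and 163, 175, 168 and 180 without fasted replicates 1, 2, 3 and 4. Fitting these 8 arrays alone gave 568, among them 272 of the 313. Of the 313 genes, 106 stayed called whichever array was removed.

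Among called genes whose groups did not overlap, the largest rises were those of Cyp17a1, the steroid 17-alpha-hydroxylase, and of Igfbp1, an insulin-repressed protein that binds insulin-like growth factors. Cyp17a1 read 9.30, 7.87, 9.25 and 8.48 on the unfasted arrays and 10.41, 10.89, 10.96 and 11.31 on the fasted ones, a rise of 2.17 ± 0.34 (4.5-fold, adjusted p = 0.0064), with no overlap. Gadd45b, a stress-inducible growth regulator, read 8.06 at most unfasted and 8.82 at least fasted and rose by 1.91 ± 0.34 (adjusted p = 0.01). The Rab GTPase gene Rab30 rose by 1.5 ± 0.25, the cytochrome gene Cyp2c39 by 1.28 ± 0.20 and the membrane transporter gene Flvcr2 by 1.21 ± 0.19. These 5 stayed called whichever array was removed. Fkbp5, a glucocorticoid-induced chaperone partner of steroid receptors, Orm3, an orosomucoid of the acute phase, Slc16a5, a monocarboxylate transporter, and St3gal5, a ganglioside synthase, rose by 1.46 ± 0.31, 1.54 ± 0.34, 1.29 ± 0.25 and 1.04 ± 0.22. Each of those 4 lost its call when any 1 of 3 to 7 arrays was left out, with adjusted p up to 0.11, and Orm3 also in the fit of 8 arrays (0.067) and with robust moderation (0.07). Igfbp1 is described with the insulin-regulated genes and the others of the 15 largest rises with fat metabolism.

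In the other direction, the largest fall among such genes was that of Hsd3b5, a male-biased steroid dehydrogenase of the growth hormone axis. It read 9.92, 10.44, 11.27 and 11.72 in unfasted livers and 5.93, 6.86, 7.14 and 7.78 after the fast and fell by 3.91 ± 0.35 on the log2 scale (15-fold, adjusted p = 3.9e-05). The groups lay far apart, and the fasted mice reached the dim part of the scale. Thrsp, a lipogenic nuclear protein, followed, and after it Cyp2c55, a cytochrome P450, which fell by 1.92 ± 0.32. Hsd3b2, a relative of Hsd3b5, fell by 1.62 ± 0.36, Keg1, a glycine acyltransferase-like gene, by 1.61 ± 0.28, Dpy19l3, a mannosyltransferase, by 1.5 ± 0.28 and Nrep by 1.33 ± 0.22. Hsd3b genes are close relatives, and whether these probe sets separate them was not tested. All of these stayed called whichever array was removed except Hsd3b2, which lost it on removal of any 1 of 6 (adjusted p up to 0.11) and with robust moderation (0.061). Most of the remaining 15 largest falls were enzymes of fatty acid and sterol synthesis.

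Genes of fatty acid synthesis fell together. Of 27 measured genes of the lipogenesis list 12 fell, none rose and 15 did not pass, with a median change of -0.35 against 0.007 over all genes. The genes that fell span the pathway from its regulators to its last steps. Srebf1, which encodes the regulator SREBP, read 10.68, 10.45, 10.96 and 10.82 unfasted and 9.06, 8.99, 8.98 and 9.08 fasted and fell by 1.70 ± 0.17 (3.25-fold, adjusted p = 8e-05). Mlxipl, the gene of the glucose-sensing regulator ChREBP, read 11.42 to 11.73 unfasted and 10.56 to 10.95 fasted and fell by 0.71 ± 0.12 (adjusted p = 0.0074). For neither regulator did the groups overlap.

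Along the pathway, Slc25a1, which exports citrate from mitochondria, fell by 0.33 ± 0.06. Acly, which splits that citrate into acetyl-CoA, read 11.41, 10.49, 11.02 and 11.04 unfasted and 9.63, 9.64, 9.54 and 9.63 fasted and fell by 1.38 ± 0.16 (adjusted p = 0.00056). Acaca, acetyl-CoA carboxylase, which makes malonyl-CoA, fell by 0.92 ± 0.11, and Mid1ip1, which activates that carboxylase, by 1.20 ± 0.11. Fasn, fatty acid synthase, read 12.39, 11.78, 12.15 and 11.96 unfasted and 10.51, 10.30, 10.18 and 10.40 fasted and fell by 1.72 ± 0.14 (3.3-fold, adjusted p = 3.1e-05). Elovl6, which lengthens the palmitate that Fasn releases, fell by 1.58 ± 0.14, and Thrsp went from 10.32 to 12.15 unfasted to 8.16 to 8.75 fasted and fell by 2.83 ± 0.36 (7.12-fold, adjusted p = 0.00097). Pgd and Me1, which supply the NADPH for synthesis, fell by 0.72 ± 0.11 and 0.66 ± 0.14, and the desaturase Fads1 by 0.48 ± 0.11. Scd1, the main liver desaturase of saturated fatty acids, read 13.43 to 13.54 unfasted and 13.05 to 13.50 fasted, in the upper part of the scale. Its change was -0.15 ± 0.12 (adjusted p = 0.71), and the groups overlapped. Acss2, which makes acetyl-CoA from acetate, had a difference of -0.63 ± 0.19 and overlapped (adjusted p = 0.11). The list held 10 to 12 called genes when any 1 array was left out. Me1 lost its call on removal of any 1 of 4 arrays and Fads1 without any 1 of 12 (adjusted p up to 0.093 and 0.15), and the other 10 kept theirs. Fads1 was also lost under 5 other settings (0.051 to 0.06).

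**Figure D1:**
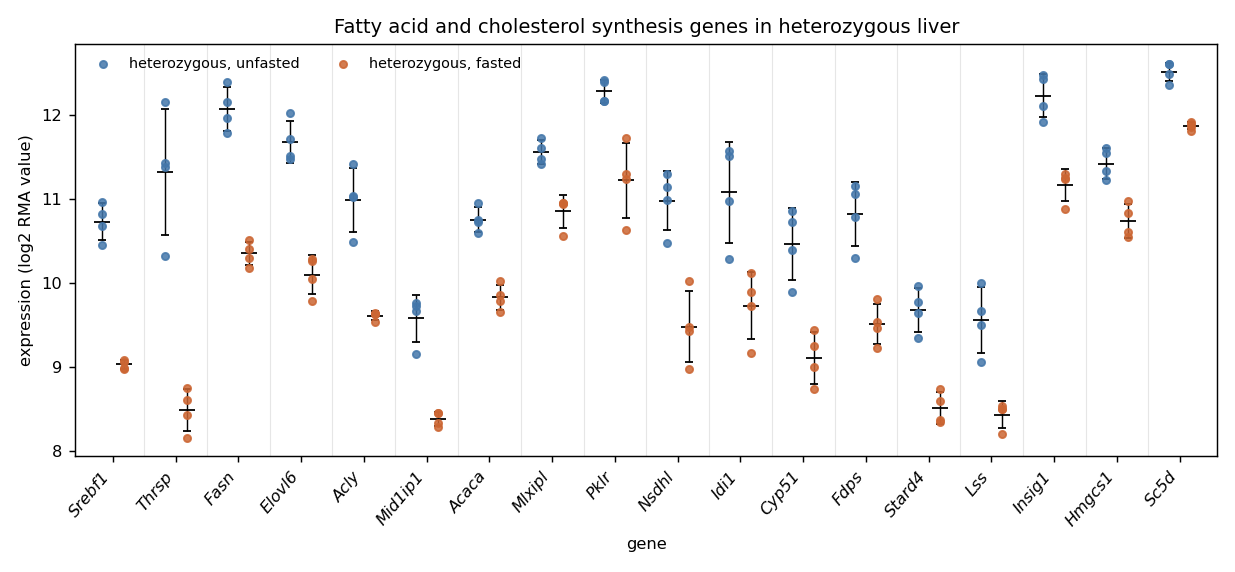
Expression of 18 genes of fatty acid and cholesterol synthesis and glycolysis on the heterozygous arrays (log2 RMA value), with 1 point per mouse, unfasted in blue and fasted in orange, and bars for mean ± SD (n = 4). For Srebf1 the unfasted mice lie between 10.45 and 10.96 and the fasted ones between 8.98 and 9.08. All 18 genes were called and their groups are apart, as in 305 of the 313 called genes.

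Cholesterol synthesis genes fell as well. Of 21 measured genes 9 fell, none rose and 12 did not pass, with a median of -0.68, the lowest of the 41 pathway lists. Hmgcs1, which makes HMG-CoA at the start of the pathway, fell by 0.68 ± 0.16. Idi1 and Fdps, which build the isoprenoid units, fell by 1.36 ± 0.29 and 1.32 ± 0.22. Lss and Cyp51, which close and trim the sterol ring, fell by 1.12 ± 0.22 and 1.36 ± 0.29. Nsdhl, a later demethylation enzyme, read 11.29, 10.48, 10.99 and 11.14 unfasted and 8.98, 9.48, 9.43 and 10.02 fasted and fell by 1.5 ± 0.28 (2.82-fold, adjusted p = 0.013). Sc5d, the sterol C5-desaturase, fell by 0.64 ± 0.06 (adjusted p = 8e-05), Stard4, which carries cholesterol between membranes, by 1.17 ± 0.16 and Insig1, which holds SREBP in the endoplasmic reticulum, by 1.07 ± 0.22. In all 9 the fasted arrays lay below the unfasted ones, which largely follows from the call (305 of the 313 called genes did not overlap). The difference for Sqle, squalene epoxidase, was -1.10 ± 0.45 with overlap (adjusted p = 0.30). It read 10.40, 8.48, 9.45 and 9.96 unfasted and 7.69, 8.48, 8.44 and 9.28 fasted. The count was 5 without unfasted replicate 3, 4 without unfasted replicate 4, 4 without fasted replicate 1 and 13 at most. Nsdhl, Fdps, Stard4 and Sc5d stayed called whichever array was removed, and the other 5 lost it without any 1 of 2 to 8 arrays (adjusted p up to 0.13), Hmgcs1 also with a second quantile normalization (0.052).

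The promoters of these genes are shown because SREBP acts beside NF-Y, a factor that binds the letters CCAAT, and both lipid synthesis lists fell. Sequences are from RefSeq (GRCm38.p6), in windows from 250 bases before to 50 bases after the transcript start, read on both strands. Of the 21 genes that fell in the 2 lists, 18 matched, with 23 windows. The 180 bases just upstream of the start of 4 of them follow, in the direction of the gene, with CCAAT, on either strand, and the sterol element core TCACNCCAC in capitals. All 4 hold CCAAT, which not all of the 23 windows do, so they do not stand for the whole set.
Fasn (chr11:120824548-120824727, minus strand): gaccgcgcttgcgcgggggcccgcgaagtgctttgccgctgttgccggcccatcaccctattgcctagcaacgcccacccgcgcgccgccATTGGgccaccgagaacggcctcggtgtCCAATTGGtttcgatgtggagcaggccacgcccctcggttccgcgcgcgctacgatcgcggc
Thrsp (chr7:97417551-97417730, minus strand): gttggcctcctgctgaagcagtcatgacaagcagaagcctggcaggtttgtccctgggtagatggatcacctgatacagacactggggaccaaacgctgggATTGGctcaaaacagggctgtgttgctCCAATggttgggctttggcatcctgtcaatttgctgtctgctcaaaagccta
Nsdhl (chrX:72918341-72918520, plus strand): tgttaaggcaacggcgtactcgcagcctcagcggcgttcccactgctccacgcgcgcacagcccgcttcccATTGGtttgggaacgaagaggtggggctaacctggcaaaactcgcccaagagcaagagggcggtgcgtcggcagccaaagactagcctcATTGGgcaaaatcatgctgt
Hmgcs1 (chr13:119690171-119690350, plus strand): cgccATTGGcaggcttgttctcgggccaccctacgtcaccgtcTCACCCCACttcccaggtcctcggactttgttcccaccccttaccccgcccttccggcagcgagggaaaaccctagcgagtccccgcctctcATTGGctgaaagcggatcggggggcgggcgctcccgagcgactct
CCAAT was present in 16 of the 23 windows (69.6%), from 15 genes, against 37.4% of all 32851 windows of the same length. TCACNCCAC was in 2 windows (8.7%, Hmgcs1 and Mlxipl) against 1.24%, and the E-box CACGTG, related to the sites that ChREBP binds, in 4 (17.4%) against 7.15%. Among 14 genes that rose in the PPAR-alpha target or beta-oxidation lists, 10 matched, with 11 windows. There CCAAT was in 4 windows (36.4%), TCACNCCAC in 1 (9.09%, Ehhadh) and CACGTG in 0. The direct repeat AGGNCANAGGNCA, a form of the PPAR-alpha element, was in none of the windows of either group and in 0.381% of all windows. Each window counted once per motif, whether or not matches overlapped, and a match is a string of letters, not a measured site.

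Genes that burn glucose fell in smaller number. Of 12 measured genes of the glycolysis list 3 fell and none rose, with a median of -0.20. Pklr, liver pyruvate kinase, read 12.41, 12.17, 12.39 and 12.16 unfasted and 11.24, 11.30, 10.63 and 11.72 fasted and fell by 1.06 ± 0.21 (adjusted p = 0.018). Pfkfb3, which makes the activator fructose 2,6-bisphosphate, fell by 0.89 ± 0.21 (adjusted p = 0.044), and the third gene was Mlxipl. Pklr lost its call without unfasted replicate 3 (adjusted p = 0.057) and Pfkfb3 on removal of any 1 of 12 arrays (up to 0.12) and under 3 other settings (0.052 to 0.082). Without unfasted replicate 3 the list held 1 called gene. Pygl, the glycogen phosphorylase of liver, fell by 0.42 ± 0.10 (adjusted p = 0.038) and was the only called gene of 13 in the glycogen list. It lost the call on removal of any 1 of 7 arrays (adjusted p up to 0.12) and with a second quantile normalization (0.057). Pdhb, a subunit of pyruvate dehydrogenase, fell by 0.52 ± 0.12 (adjusted p = 0.042) and was the only called gene among 24 of pyruvate dehydrogenase and the tricarboxylic acid cycle, a call lost on removal of any 1 of 11 arrays (adjusted p up to 0.12), with the replicate block (0.067) and with arrays centred on their median (0.065). Pdk4, the kinase that restrains pyruvate dehydrogenase, read 8.65, 10.22, 9.38 and 8.56 unfasted and 10.19, 10.08, 10.53 and 10.09 fasted. It was 1.02 ± 0.39 higher, short of the threshold (adjusted p = 0.25), and overlapped through unfasted replicate 2.

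Genes of fat burning rose. Of 32 measured PPAR-alpha targets 13 rose, none fell and 19 did not pass, with a median of 0.44, the highest of the pathway lists, and 31 of the 32 changes were positive. Of 20 genes of mitochondrial beta-oxidation 8 rose and none fell, with a median of 0.31 and all 20 changes positive. The lists share 7 of these genes. Cpt1a, the carnitine palmitoyltransferase that admits fatty acids to mitochondria, read 12.12, 11.76, 11.83 and 11.55 unfasted and 12.26, 12.27, 12.43 and 12.38 fasted, a rise of 0.52 ± 0.10 (1.43-fold, adjusted p = 0.015). Its partner Cpt2 rose by 0.32 ± 0.07, and Slc22a5, which brings carnitine into the cell, by 1 ± 0.21. Of the enzymes that shorten the chain, Acadm, the medium-chain dehydrogenase, rose by 0.40 ± 0.07, Hadha and Hadhb, the trifunctional protein, by 0.26 ± 0.05 and 0.46 ± 0.09, Eci1, which handles unsaturated chains, by 0.39 ± 0.08, and Etfdh, which passes their electrons to the respiratory chain, by 0.32 ± 0.06. In each of these 8 genes the fasted arrays lay above the unfasted ones. The groups lay apart in 305 of the 313 called genes, so this largely follows from the call.

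The size of both lists depended on single arrays. The count of PPAR-alpha targets was 8 without unfasted replicate 4 and 7 without fasted replicate 2, and reached 16. That of beta-oxidation genes was 3 without unfasted replicate 4, 5 without fasted replicate 1, 3 without fasted replicate 2 and 5 without fasted replicate 4, and reached 11. Acadm and Etfdh stayed called whichever array was removed, Cpt1a lost it without fasted replicate 3 (adjusted p = 0.054), and the other 5 lost it without any 1 of 2 to 6 arrays (adjusted p up to 0.085).

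Other routes of fatty acid oxidation took part. Ehhadh, the peroxisomal bifunctional enzyme, read 11.56, 11.99, 11.28 and 11.29 unfasted and 12.21, 12.45, 12.32 and 12.30 fasted, a rise of 0.79 ± 0.15 (adjusted p = 0.013), and the peroxisomal thioesterase Acot8 rose by 0.43 ± 0.07 (adjusted p = 0.0064). They were the called genes among 14 of peroxisomal oxidation, a list with a median of 0.23. Of 9 genes of omega-oxidation, which begins at the far end of the chain, Cyp4a10 and Cyp4a31 rose by 0.68 ± 0.13 and 0.87 ± 0.18 (adjusted p = 0.014 and 0.023). Cyp4a14 was 1.47 ± 0.49 higher, short of the threshold (adjusted p = 0.17). It read 12.85, 13.18, 11.94 and 9.70 unfasted and 13.34 to 13.43 fasted, so the groups were apart and the spread lay in the unfasted mice. Cyp4f14 differed by -0.75 ± 0.26 (adjusted p = 0.20, and 0.018 in the fit of 8 arrays, which called it alone in this list), and the differences of Cyp4a12a, Cyp4a12b, Cyp4f15, Aldh3a2 and Adh1 lay between -0.16 and 0.15. The Cyp4a genes are close relatives and may share signal. Crat, carnitine acetyltransferase, rose by 0.69 ± 0.16, and of 13 genes that cleave or conjugate acyl-CoA, Acnat2, which conjugates fatty acids to taurine, rose by 1.16 ± 0.24 and Acot12, an acetyl-CoA thioesterase, by 0.36 ± 0.07, beside Acot8. Acot1, a cytosolic thioesterase, was 1.18 ± 0.33 higher with overlap (adjusted p = 0.098). Ehhadh, Acot8 and Cyp4a10 stayed called whichever array was removed. Cyp4a31 lost it without any 1 of 4, Crat of 6, Acnat2 of 5 and Acot12 without fasted replicate 3 (adjusted p up to 0.11). Cyp4a10, Cyp4a31 and Crat were not called in the fit of 8 arrays (0.051, 0.07 and 0.07). The omega-oxidation count was 1 without unfasted replicate 3 or any 1 of fasted replicates 2, 3 and 4.

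**Figure D2:**
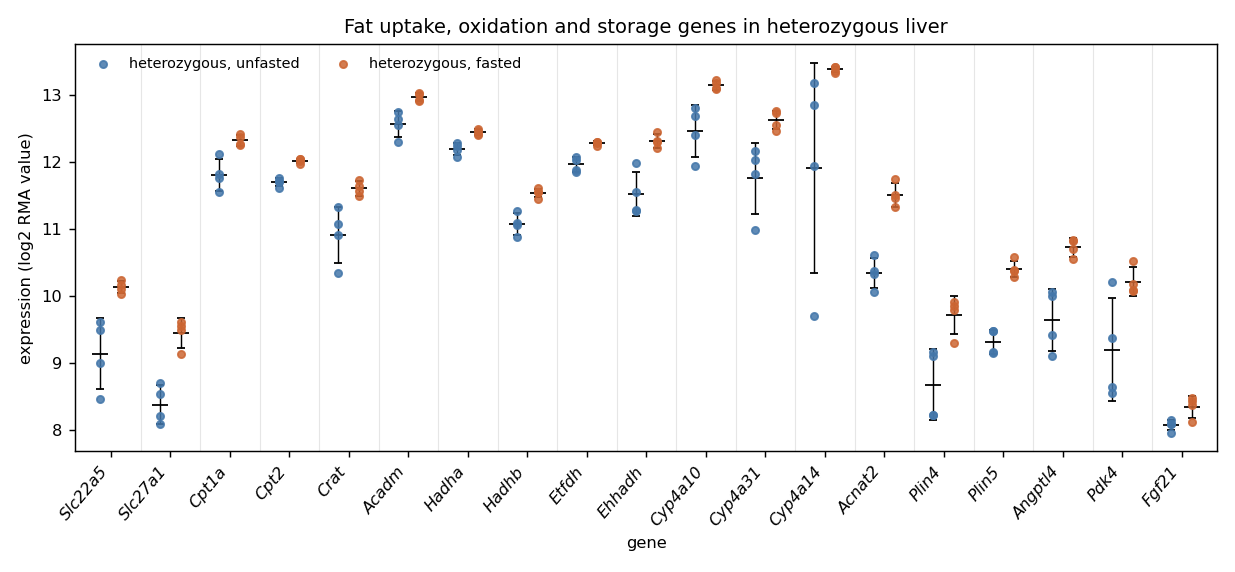
Expression of 19 genes of fatty acid uptake, oxidation and storage on the heterozygous arrays (log2 RMA value), with 1 point per mouse and bars for mean ± SD (n = 4). Cyp4a14 spreads widely among unfasted mice (9.70 to 13.18), while the fasted mice lie close together (13.34 to 13.43).

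None of the 5 measured genes of ketone body production and export was called (limma), and none had an unadjusted p under 0.05. Acat1, which makes acetoacetyl-CoA, was 0.17 ± 0.09 higher, Slc16a1, which exports ketone bodies, 0.23 ± 0.12 higher, and the differences of Bdh1, Sirt3 and Slc16a6 were -0.16 ± 0.11, 0.14 ± 0.08 and -0.11 ± 0.17 (adjusted p from 0.48 to 0.89).

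Uptake, storage and secretion of fat moved in part. Plin5, a lipid droplet protein that ties droplets to mitochondria, read 9.48, 9.48, 9.17 and 9.16 unfasted and 10.39, 10.58, 10.37 and 10.29 fasted. Its rise of 1.09 ± 0.13 (2.12-fold, adjusted p = 0.00086) had the smallest adjusted p of the 15 largest rises. Plin4, another droplet protein, and Lpin2, a phosphatidate phosphatase, rose by 1.03 ± 0.23 and 0.58 ± 0.13, which made 3 of the 19 genes of lipid droplets and lipolysis, with none lower and a median of 0.31. Pnpla2, the first lipase of the droplet, was 0.65 ± 0.16 higher without passing (adjusted p = 0.06), and Cidec, which enlarges droplets, 0.88 ± 0.46 higher (adjusted p = 0.50). In the uptake list Slc27a1 and Slc27a2, fatty acid transport proteins that also form acyl-CoA, rose by 1.07 ± 0.23 and 0.20 ± 0.04, and they were 2 of 16 genes with a median of 0.01. Angptl4, a secreted inhibitor of lipoprotein lipase, read 9.11 to 10.07 unfasted and 10.55 to 10.84 fasted with no overlap, a rise of 1.08 ± 0.18 (adjusted p = 0.0088). Angptl8, a relative induced by feeding, fell by 1.16 ± 0.24 (adjusted p = 0.019), and Apoa5, an apolipoprotein that aids triglyceride clearance, rose by 0.26 ± 0.06 (adjusted p = 0.041), out of 18 lipoprotein genes. Plin5 and Angptl4 stayed called whichever array was removed, and the other 6 lost it without any 1 of 3 to 9 (adjusted p up to 0.13). Plin4 and Slc27a2 were not called in the fit of 8 arrays (0.052 and 0.063), nor Slc27a2 and Apoa5 with arrays centred on their median (0.088 and 0.065). The droplet count was 5 without unfasted replicate 1 and 1 without any 1 of unfasted replicates 3 and 4 and fasted replicates 1, 2 and 4. The uptake count was 0 without any 1 of unfasted replicates 3 and 4 and fasted replicates 2 and 4, 1 without fasted replicate 3 and 4 without unfasted mutant replicate 3. The lipoprotein count was 1 without unfasted replicate 3 or fasted replicates 3 or 4.

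Of the genes of glucose production, Pck1, the phosphoenolpyruvate carboxykinase that commits carbon to glucose, read 12.42, 11.98, 12.18 and 12.22 unfasted and 12.76, 12.78, 12.90 and 12.75 fasted. It rose by 0.60 ± 0.10 (1.51-fold, adjusted p = 0.0077) and stayed called whichever array was removed. Gpt2, an alanine aminotransferase, rose by 0.48 ± 0.11 (adjusted p = 0.042), a call lost on removal of any 1 of 10 arrays (up to 0.14), with the replicate block (0.053) and with arrays centred on their median (0.075). With Gpt2 lost the count is 1. They were 2 of 19 gluconeogenesis genes, with a median of 0.26 and 16 positive changes. G6pc, glucose-6-phosphatase, which releases glucose, read 13.02, 12.82, 12.97 and 12.81 unfasted and 12.79, 12.82, 13.24 and 12.88 fasted. Its change was 0.03 ± 0.17 (adjusted p = 0.98) in the upper part of the scale. Ppargc1a, the coactivator of gluconeogenic and mitochondrial genes, read 8.48 to 8.66 unfasted and 8.89 to 9.70 fasted, with no overlap. It was 0.68 ± 0.26 higher (adjusted p = 0.27), and the fit of 8 arrays called it (0.048).

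Igfbp1 led the genes that insulin represses through FOXO factors. It read 9.40, 10.14, 7.93 and 9.37 unfasted and 11.57, 10.28, 12.02 and 11.49 fasted. Its rise of 2.13 ± 0.46 (4.38-fold, adjusted p = 0.027) rested on wide spread in both groups, the lowest fasted array (10.28) lying just above the highest unfasted one (10.14). The call was lost on removal of any 1 of 5 arrays (adjusted p up to 0.096) and with robust moderation (0.062). Irs2, the insulin receptor substrate, was 0.85 ± 0.24 higher with no overlap (adjusted p = 0.099, and 0.028 in the fit of 8 arrays). Of the 18 genes of the list only Igfbp1 and Pck1 passed, and the median was 0.02. The count was 1 without unfasted replicates 3 or 4 or fasted replicates 1, 3 or 4. Among secreted liver hormones, Inhba, an activin subunit, fell by 1.26 ± 0.26 (adjusted p = 0.022, lost on removal of any 1 of 5 arrays, up to 0.075). Fgf21, a fasting hormone that PPAR-alpha induces, read 8.10, 8.10, 8.15 and 7.96 unfasted and 8.43, 8.48, 8.12 and 8.38 fasted. It was 0.27 ± 0.23 higher (adjusted p = 0.74), and the groups overlapped.

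Glucocorticoid-responsive genes were higher at the median, and unfasted replicate 1 was the highest of its group in those given here. Of 17 genes 2 rose, Fkbp5 and Gadd45b, none fell, the median was 0.37 and 16 changes were positive. Fkbp5 read 9.62, 8.61, 8.35 and 8.46 unfasted and 10.07, 10.30, 10.32 and 10.19 fasted, so unfasted replicate 1 lay nearest to the fasted mice. The metallothionein gene Mt1 read 11.98, 9.54, 8.46 and 8.36 unfasted and 12.39, 11.53, 10.59 and 12.10 fasted, Mt2 13.24, 11.14, 9.22 and 9.29 against 12.22 to 13.36, and Lcn2, an iron-binding acute phase protein, 10.68, 8.90, 8.52 and 8.03 against 9.59 to 12.61. In all 3 genes unfasted replicate 1 was the highest of its group and replicate 2 the next. Gadd45b read 8.06, 7.89, 7.10 and 6.80 unfasted, so there replicates 1 and 2 lay close together. Dixon's test, given below, flagged none of these values. Mt1, Mt2 and Lcn2 were 2.07 ± 0.63, 2.23 ± 0.64 and 2.28 ± 0.62 higher, short of the threshold (adjusted p = 0.13, 0.11 and 0.087). Zbtb16, another glucocorticoid target, was 1.38 ± 0.35 higher (adjusted p = 0.068). Without unfasted replicate 1 the list had 6 called genes, and it had 1 without any 1 of unfasted replicates 2, 3 and 4 and fasted replicates 1, 2 and 4.

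Unfasted replicate 1 also lay at an end of its group in the genes of the circadian clock given here, though Dixon's test flagged none of them. Per1, which glucocorticoids and the clock both induce, read 9.17, 7.84, 8.34 and 8.25 unfasted and 8.80 to 9.20 fasted. Dbp, a clock output gene, read 10.14, 8.67, 9.35 and 8.84 unfasted and 7.88 to 8.76 fasted. Arntl, the gene of the core activator BMAL1, read 7.64, 9.08, 8.41 and 8.76 unfasted and 8.83 to 9.18 fasted. So replicate 1 had the highest Per1 and Dbp and the lowest Arntl of its group. Their differences were 0.54 ± 0.29, -0.97 ± 0.30 and 0.51 ± 0.30, and none passed (adjusted p = 0.51, 0.14 and 0.57). Per2 and Nr1d1, repressors of the clock, differed by -0.49 ± 0.18 and -0.17 ± 0.33 (adjusted p = 0.25 and 0.93). Of 20 clock genes none was called by limma, and 1 higher and 4 lower had an unadjusted p under 0.05, against 2444 of all 19938 genes. The median was -0.01, and the list averaged 8.89 to 9.63 over unfasted mice and 8.98 to 9.12 over fasted ones. The part of sampling time in these values was not tested.

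**Figure D3:**
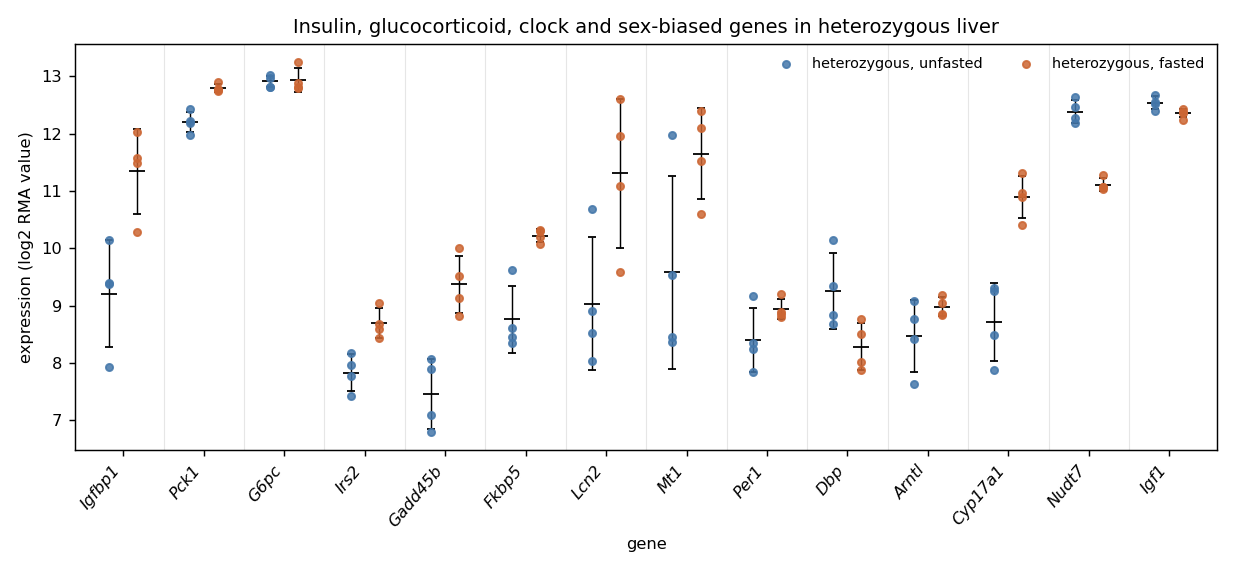
Expression of 14 insulin, glucocorticoid, clock, growth hormone and sex-biased genes on the heterozygous arrays (log2 RMA value), with 1 point per mouse and bars for mean ± SD (n = 4). The unfasted mouse at 11.98 for Mt1 and 10.14 for Dbp is replicate 1 in both, and Nudt7 and Cyp17a1 separate the groups without overlap.

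The list of male-biased genes and genes under growth hormone control was lower at the median. Of 22 genes 2 fell, 1 rose and 19 did not pass, with a median of -0.41 and 19 negative changes. Beside Hsd3b5, Nudt7, a peroxisomal coenzyme A hydrolase, read 12.27, 12.18, 12.47 and 12.63 unfasted and 11.07, 11.06, 11.03 and 11.27 fasted and fell by 1.28 ± 0.24 (adjusted p = 0.013) kept whichever array was removed. Serpina4-ps1, at 11.59 to 12.61 unfasted and 9.15 to 10.39 fasted with no overlap, differed by -2.56 ± 0.67 (adjusted p = 0.071, and 0.003 in a fit of the 8 heterozygous arrays alone). Igfbp2, a binding protein that growth hormone lowers, rose by 0.96 ± 0.19 (adjusted p = 0.019, lost on removal of any 1 of 4 arrays, up to 0.063). The growth hormone targets Cish and Socs2 differed by -1.06 ± 0.31 and -0.86 ± 0.44 (adjusted p = 0.12 and 0.48). Igf1, the circulating growth factor, read 12.55, 12.40, 12.52 and 12.68 unfasted and 12.24, 12.36, 12.42 and 12.37 fasted, a difference of -0.19 ± 0.06 that did not pass (adjusted p = 0.14). Of 14 female-biased genes Cyp17a1 and Sult1e1, an estrogen sulfotransferase, rose. Sult1e1 did so by 0.22 ± 0.04 at the dim end of the scale, from 4.36 to 4.42 unfasted to 4.51 to 4.68 fasted, and without fasted replicate 1 its adjusted p was 0.05 and the count 1.

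Drug metabolism and acute phase lists each had 3 called genes of 22, against 1.57% of all genes. At an unadjusted p under 0.05 (limma) the xenobiotic list had 5 higher and 6 lower. The acute phase list had 8 higher and 0 lower, with 18 positive changes. Over all genes 2444 of 19938 reached that p. Of 22 xenobiotic genes Nr1i3, the nuclear receptor CAR, and Sult1d1, a sulfotransferase, rose by 0.75 ± 0.18 and 0.50 ± 0.11, and Cyp2c55 fell. Nr1i3 lost its call on removal of any 1 of 13 arrays and Sult1d1 of 7 (adjusted p up to 0.13), and Nr1i3 also under 4 other settings (0.054 to 0.067). The xenobiotic count was 5 without unfasted replicate 1 and 1 without any 1 of unfasted replicates 2 and 4 and the 4 fasted replicates. Of 22 acute phase genes 3 rose, with a median of 0.19: Orm3, Lbp, the lipopolysaccharide binding protein, by 0.73 ± 0.16 and Serpina3n, a protease inhibitor, by 0.41 ± 0.09. Serpina3n was not called with arrays centred on their median (0.064). Orm3 read 7.23, 6.22, 6.65 and 6.74 unfasted and 9.14, 7.75, 7.28 and 8.84 fasted. The acute phase count was 0 without any 1 of unfasted replicates 3 and 4 and fasted replicates 1 and 4, and 1 without unfasted replicate 2 or fasted replicate 2. Of 16 NRF2 targets only Me1, which is also lipogenic, was called. The count was 2 without unfasted replicate 1 and 0 without any 1 of unfasted replicates 2 and 3 and fasted replicates 1 and 3.

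Chaperones and folding enzymes of the endoplasmic reticulum were lower at the median. Of 24 genes 4 fell and none rose, the median was -0.22, and 22 changes were negative. Sdf2l1, a cochaperone of BiP, read 10.13, 10.81, 10.47 and 10.29 unfasted and 9.91, 9.39, 9.22 and 9.38 fasted and fell by 0.95 ± 0.18 (adjusted p = 0.015). The disulfide isomerases Pdia6 and Pdia3 fell by 0.54 ± 0.12 and 0.29 ± 0.07 (adjusted p = 0.036 and 0.041) and Derl3, of the degradation machinery, by 0.59 ± 0.14 (0.047), the last with overlap. All 4 lost their call without at least 1 array, Sdf2l1 without fasted replicate 3 alone (0.055) and the rest on removal of any 1 of 6 to 15 (up to 0.14). Pdia3 was also lost under 2 other settings (up to 0.069) and Derl3 under 3 (up to 0.10). The count was 0 without fasted replicate 3 and 1 without any 1 of unfasted replicates 2 and 3 and fasted replicates 2 and 4. It was 2 without unfasted replicate 4, fasted replicate 1 or fasted mutant replicates 2 or 4, and 5 at most. The 28 ATF4 stress response genes had a median of -0.03 and no call by limma, with 1 gene under an unadjusted p of 0.05 (2444 of all 19938 genes). Asns, asparagine synthetase, read 8.81, 10.04, 8.42 and 9.61 unfasted and 7.46, 7.68, 10.54 and 9.71 fasted, a difference of -0.37 ± 0.53.

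Of the amino acid and mitochondrial lists in this paragraph, only that of amino acid breakdown held a called gene. Of 30 genes of amino acid breakdown only Mat1a, which makes S-adenosylmethionine, rose. It read 13.07 to 13.16 unfasted and 13.37 to 13.50 fasted, a rise of 0.30 ± 0.04 (adjusted p = 0.0023) kept whichever array was removed. Of 24 genes of autophagy and lysosomes only Map1lc3b, an autophagosome protein, rose, by 0.48 ± 0.09 (adjusted p = 0.014), also kept whichever array was removed. No gene was called by limma among 8 of the urea cycle, 25 of branched-chain amino acid and propionate breakdown, 32 oxidative phosphorylation subunits and 14 mitochondrial regulators, where 4, 3, 1 and 2 had an unadjusted p under 0.05. Over all genes 2444 of 19938 did. In the urea cycle Asl, argininosuccinate lyase, was 0.64 ± 0.18 higher and Arg1, arginase, 0.29 ± 0.09 higher, both with no overlap (adjusted p = 0.09 and 0.15). Asl was called with the replicate block (0.039). Hsd17b10, of isoleucine breakdown, was 0.44 ± 0.11 higher (adjusted p = 0.068, and 0.029 in the fit of 8 arrays).

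Bile acid and growth lists gave no call, and the zonation lists gave those of Pck1 and Cdh1. Of 24 bile acid genes none was called by limma, with 4 higher and 4 lower at an unadjusted p under 0.05. Cyp7a1, the rate-limiting enzyme of bile acid synthesis, read 11.84, 11.23, 11.73 and 11.42 unfasted and 11.19, 11.78, 12.93 and 12.27 fasted, a change of 0.49 ± 0.41 (adjusted p = 0.74). Cyp2c70, which makes muricholic acid, differed by -1.07 ± 0.27 with no overlap (adjusted p = 0.059, and 0.021 in the fit of 8 arrays), and Cyp7b1, of the alternative pathway, by -0.98 ± 0.24 with overlap (0.058). Of 10 periportal genes Pck1 rose and Cdh1, E-cadherin, fell by 1.10 ± 0.26 (adjusted p = 0.044) with overlap, since fasted replicate 3 read 9.56 among unfasted values of 9.40 to 9.89 while the other fasted mice read 8.04 to 8.45. Cdh1 lost its call on removal of any 1 of 9 arrays (up to 0.14) and under 4 other settings (0.051 to 0.079). Of 22 cell cycle genes 20 changes were negative and of 14 interferon-induced genes all 14, with medians of -0.18 and -0.20. None was called by limma, and 5 and 4 had an unadjusted p under 0.05. No gene was called among 15 immediate early and heat shock genes (7 under an unadjusted p of 0.05), 19 of ribosome biogenesis (1), 13 pericentral genes (5), 19 amino acid transporters (8) or 12 of nicotinamide metabolism (4). All these unadjusted counts stand against 2444 of 19938 over all genes. With 1 array left out, 1 gene was called at most in the bile acid, branched-chain, clock, immediate early, pericentral and nicotinamide lists and none in the other lists without a call. The fit of 8 arrays called 1 higher and 3 lower bile acid genes. It called 1 higher and 1 lower in both the pericentral and amino acid transporter lists, and 1 lower in both the cell cycle and nicotinamide lists. The replicate block called 2 lower bile acid genes, 2 lower interferon-induced genes and 1 lower pericentral gene. Of the immediate early genes, Egr1 read 7.69, 7.89, 7.44 and 9.57 unfasted and 9.57, 7.65, 10.12 and 9.26 fasted, and Btg2 8.00, 8.07, 7.90 and 9.58 against 9.68, 8.18, 10.08 and 9.69. In both, unfasted replicate 4 lay with the fasted mice and fasted replicate 2 with the unfasted ones.

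**Figure D4:**
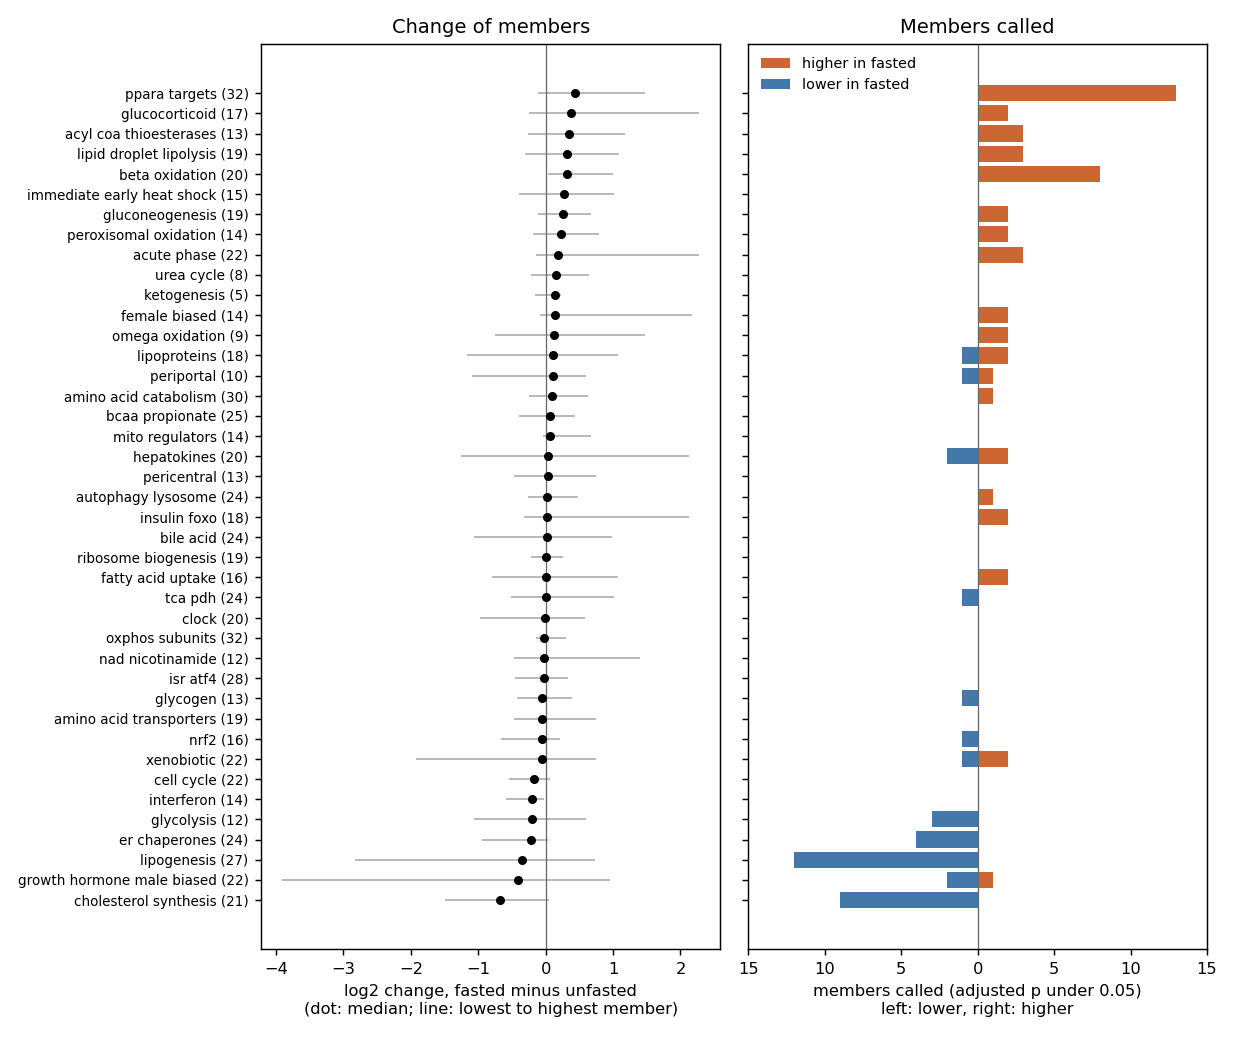
Fasting response of the 41 pathway lists in heterozygous liver, with the number of measured genes in parentheses. On the left a dot marks the median log2 change (fasted minus unfasted) and a line the lowest to highest member; on the right bars count called members, lower to the left and higher to the right. PPAR-alpha targets lie at the top with a median of 0.44 and 13 higher, cholesterol synthesis at the bottom with -0.68 and 9 lower.

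The fasting response was then set against that of the mutant liver, where 667 genes were called (3.35%). The mutants fasted for 8 to 12 hours and the heterozygotes for 12, so genotype and length of fast cannot be told apart. The 2 responses share no array, but the joint fit gave both the same estimate of each gene's spread, so their calls are not independent. Of the 313 genes called in heterozygotes 275 had the same sign in mutants, against 55.5% of all genes, and 78 were called in both, 77 with the same sign. These 78 are 24.9% of the heterozygous and 11.7% of the mutant calls. The median size of change of the 313 genes was 0.21 in mutants, where they had not been selected, so the larger size in heterozygotes is partly fixed by the choice. The mutant count depended on single arrays more than the heterozygous one: it was 1941 without unfasted mutant replicate 1, 287 and 342 without unfasted mutant replicates 2 and 4, and 224 and 371 without fasted mutant replicates 2 and 3. Fitting the mutant arrays alone gave 33. Unfasted mutant replicate 1 carried acinar pancreas transcripts, with Ctrb1, chymotrypsinogen, at 12.64 against at most 7.53 on the other mutant arrays.

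For several core genes the estimates in the 2 genotypes lay close together, and for others further apart. Fasn changed by -1.72 ± 0.14 in heterozygotes and -1.64 ± 0.14 in mutants, a difference of -0.08 ± 0.20 (interaction, limma, adjusted p = 0.88). For Thrsp the changes were -2.83 ± 0.36 and -2.73 ± 0.36, for Acaca -0.92 ± 0.11 and -0.97 ± 0.11, and for Mlxipl -0.71 ± 0.12 and -0.70 ± 0.12. Of the genes that rose, Cpt1a rose by 0.52 ± 0.10 and 0.46 ± 0.10, Pck1 by 0.60 ± 0.10 and 0.55 ± 0.10, and Cyp17a1 by 2.17 ± 0.34 and 1.82 ± 0.34. Each of these 7 genes passed in both genotypes. Their differences did not pass (adjusted p from 0.78 to 0.98), which does not show that they were equal. For other lipid synthesis genes the estimates lay further apart. Acly changed by -1.38 ± 0.16 in heterozygotes and -0.72 ± 0.16 in mutants, and Stard4 by -1.17 ± 0.16 and -0.40 ± 0.16. Pgd changed by -0.72 ± 0.11 and -0.10 ± 0.11, and Me1 by -0.66 ± 0.14 and -0.08 ± 0.14. The differences for these genes did not pass either (interaction, limma, adjusted p from 0.29 to 0.38). Among the lists, cholesterol synthesis had a median of -0.68 in heterozygotes and -0.70 in mutants, lipogenesis -0.35 and -0.15, PPAR-alpha targets 0.44 and 0.37, beta-oxidation 0.31 and 0.25, and glucocorticoid genes 0.37 and 0.03.

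The test of the difference called 2 genes (0.01%), with 2189 under an unadjusted p of 0.05. Hsd3b5 fell by 3.91 ± 0.35 in heterozygotes and changed by -0.03 ± 0.35 in mutants, a difference of -3.87 ± 0.49 (adjusted p = 0.015). In mutants it read 5.44 to 5.69 unfasted and 5.47 to 5.61 fasted, so it was already at the dim end of the scale without a fast, where a fall can be understated. Xkr9, a member of a family of membrane scramblases, read 9.78, 9.92, 9.90 and 9.75 in unfasted and 8.95, 9.12, 8.80 and 9.15 in fasted heterozygotes. It fell by 0.83 ± 0.10 there and changed by 0.12 ± 0.10 in mutants, from 9.15 to 9.36 unfasted to 9.21 to 9.65 fasted. The difference of -0.95 ± 0.14 sat at the threshold (adjusted p = 0.04995). The difference for Hsd3b5 lost its call on removal of any 1 of 6 arrays (adjusted p up to 0.057) and with robust moderation (0.081). That for Xkr9 lost it without any 1 of 13 (up to 0.19) and under 4 other settings (0.059 to 0.093). Without unfasted heterozygous replicate 1 the count of called differences was 6, 0 without any 1 of unfasted mutant replicates 1, 3 and 4, fasted mutant replicate 2, unfasted heterozygous replicate 3 and fasted heterozygous replicate 2, and 1 without any 1 of 5 others.

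Further genes had estimates that lay apart, and some of them, though not all, had other starting levels in mutants. Srebf1 fell by 1.70 ± 0.17 in heterozygotes and 0.70 ± 0.17 in mutants, from 9.31 to 10.21 to 8.77 to 9.30 in the latter. The difference of -1 ± 0.24 did not pass (adjusted p = 0.27). Igfbp1 read 11.29 to 12.87 in unfasted mutants, against 7.93 to 10.14 in unfasted heterozygotes, and its change there was 0.28 ± 0.46. Gadd45b read 8.24 to 9.87 in unfasted and 9.14 to 9.86 in fasted mutants, a change of 0.45 ± 0.34. Orm3 read 5.41 to 6.53 unfasted and 5.40 to 5.74 fasted, a change of -0.31 ± 0.34. Sult1d1 went opposite ways, 0.50 ± 0.11 in heterozygotes and -0.44 ± 0.11 in mutants (adjusted p = 0.038), with a difference of 0.94 ± 0.15 that missed the threshold (adjusted p = 0.11). G6pc rose by 0.73 ± 0.17 in mutants (adjusted p = 0.031) and changed by 0.03 ± 0.17 in heterozygotes, and Ppargc1a rose by 1.33 ± 0.26 (0.015) against 0.68 ± 0.26. Fgf21 changed by -0.76 ± 0.23 in mutants, from 9.03 to 10.39 to 8.60 to 9.44, and by 0.27 ± 0.23 in heterozygotes. The differences for Igfbp1, Gadd45b, Orm3, G6pc, Ppargc1a and Fgf21 did not pass (adjusted p from 0.29 to 0.50), which does not show that the genotypes responded alike.

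**Figure D5:**
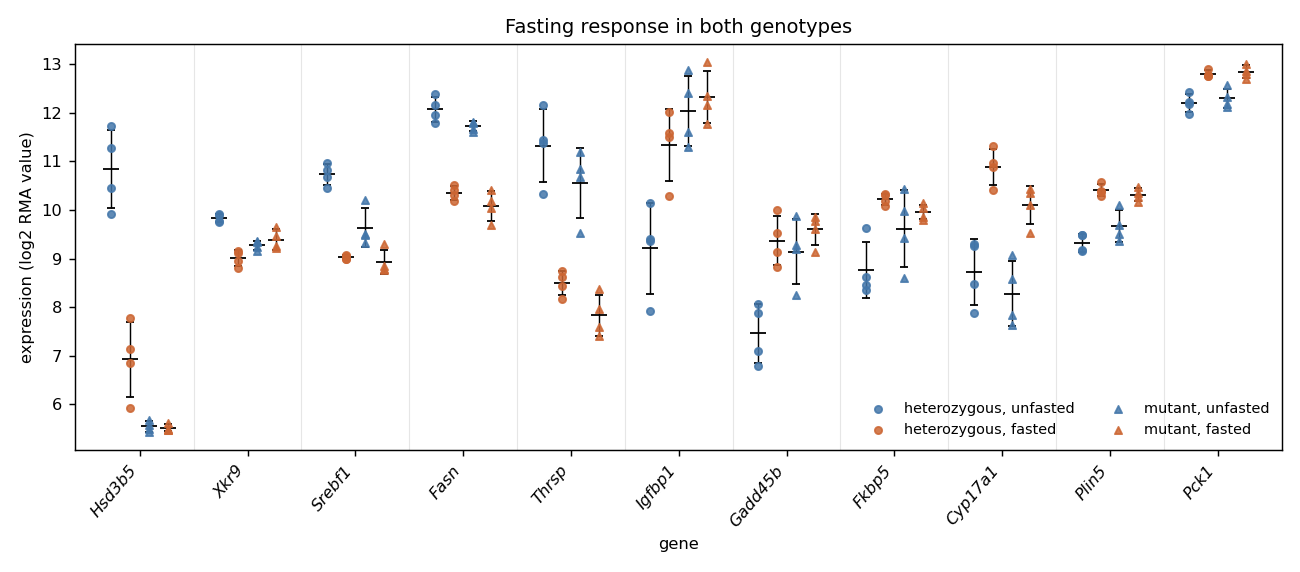
Expression of 11 genes on all 16 arrays (log2 RMA value), heterozygous mice as circles and mutants as triangles, unfasted in blue and fasted in orange, with bars for mean ± SD (n = 4). Hsd3b5 lies between 5.44 and 5.69 in mutants of both states and falls from 9.92 to 11.72 to 5.93 to 7.78 in heterozygotes, while Fasn and Thrsp fall in both genotypes.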

How the data were processed

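Total RNA from 16 livers was hybridised to Affymetrix Mouse Gene 1.0 ST arrays. Per the submitters' processing notes the authors used Affymetrix Expression Console and RMA, which corrects background, normalizes by quantiles and summarizes probes. Versions, library file and genome build are not given in the sources used here. The deposited values, read as log2 from their range (3.80 to 14.33), cover 35556 probe sets with no detection calls.

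The platform's annotation gave 21789 probe sets 1 symbol, 1621 several and 12146 none used here. Symbols were updated through RefSeq (GRCm38.p6, 21698 matched). For 999 genes with several probe sets the brightest was kept, which left 19938 genes without a filter. Genes that lack a probe set with a single symbol were not analysed here.

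The 16 arrays were modelled together by limma 3.58.1 in R 4.3.3, each group having its own mean (with trended moderation, two-sided tests, Benjamini-Hochberg adjustment over all genes, called under 0.05), and checked on simulated data. Changes are log2 differences ± SE. The number of arrays limits the precision. The alternatives were a fit of only the arrays compared, a replicate block, array weights, median centring, a second quantile normalization, moderation without a trend or robust, the mean over probe sets, brighter genes only, a threshold of 0.01, a 2-fold minimum and leaving out each array.

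The genes and the 51 gene lists were chosen with earlier results of these data known. Named are the 15 largest non-overlapping rises and falls, a short set of fasting genes, up to 6 called genes per list, the 2 largest changes where fewer than 2 were called, lists under 12 genes whole, and called interaction genes. Predicted genes and clones were counted only (15 of the 313). Chosen after their values were seen were Insig1, Hmgcs1, Sc5d, Pgd, Fads1, Slc25a1, Acaca, Scd1, Acss2, Sqle, Cpt2, Hadha, Acot1, Pnpla2, Cidec, Lcn2, Mt1, Mt2, Zbtb16, Serpina4-ps1, Cish, Socs2, Per2 and Nr1d1.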

Additional observations from a re-analysis of the deposited data

Results flagged for a closer look

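In 27 of 410 heterozygous groups of 4 values, 2 for each named gene, 1 mouse lay far from the other 3 by Dixon's test (6.59%), where chance gives about 1 in 20. The widest gaps were those of Cidea, a lipid droplet gene, at 7.96 in fasted replicate 4 (others 6.02 to 6.25) and 7.06 in unfasted replicate 1 (others 5.94 to 5.97), and of Btg2, an immediate early gene, at 9.58 in unfasted replicate 4 (others 7.90 to 8.07).

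Unfasted replicate 1 was also the high value for Bnip3 (12.02), Ctrb1 (7.57) and Plin1 (7.71). Unfasted replicate 2 was low for Asl (11.03), Mid1ip1 (9.16) and Mmut (9.66). Slc16a6 was high in unfasted replicate 3 (8.32) and Acot8 low in unfasted replicate 4 (8.20).

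Among fasted mice, replicate 1 was low for Cyp4a12a (12.32), Cyp4a12b (12.07), Slc27a2 (13.34), Lss (8.20), Insig1 (10.88) and Cftr (5.33), and high for Retnlg (6.52). Fasted replicate 2 was low for Derl3 (7.87). Fasted replicate 3 was low for Acly (9.54), Mlxipl (10.56), Rxra (10.93), Cars (8.72) and Tbx3 (9.59), and high for Sult1d1 (11.88) and Polr1a (9.62). Nudt7 was high in fasted replicate 4 (11.27).

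The fasting response of 2 genes differed between the genotypes by the interaction test (limma): Hsd3b5 by -3.87 (adjusted p = 0.015) and Xkr9 by -0.95 (adjusted p = 0.04995). The mutants fasted for 8 to 12 hours and the heterozygotes for 12, so genotype and length of fast cannot be told apart.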

How the results depend on the processing

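No called gene that the text names changed direction under any alternative run. Of 83 such genes 36 kept their call without any 1 array, and 35 of these also did under each other fit run (the stricter thresholds aside). The lowest numbers kept were 46, without unfasted heterozygous replicate 3 or 4. The count of called genes in heterozygotes, 313 here, was 568 in a fit of only the arrays compared, 1029 with array weights, 73 at a threshold of 0.01 and 49 at 2-fold or more. It ranged from 155 to 358 with 1 array left out. With the replicate block it was 383. After each gene's group mean was subtracted, same-numbered fasted and unfasted heterozygous arrays correlated at 0.149, 0.19, 0.014 and 0.009. The numbers were therefore not taken to pair the mice. The mutant count of 667 was 33 in a fit of only the mutant arrays, 79 at 0.01 and 26 at 2-fold, with 224 to 1941 when 1 array was left out and 644 with the replicate block. The interaction count of 2 was 1 with array weights, 1 with median centring, 0 with robust moderation, 0 among brighter genes, 0 at 0.01 and 1 at 2-fold, with 0 to 6 when 1 array was left out and 2 with the replicate block. The cause of these shifts was not tested. Depth is limited by 4 mice per group, and dim or nearly saturated probe sets can understate a change.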
